A study of Homo sapiens with 6 samples.

Results

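The genes described here make and break down heme, the iron-porphyrin cofactor of cytochromes, catalases and hemoglobin. They were taken by name: the synthesis enzymes ALAS1, ALAD, UROS, UROD, CPOX, PPOX and FECH and the heme oxygenases HMOX1 and HMOX2. All 9 were found among the 58478 genes of the table, and all 9 were among the 17396 genes with enough counts to be tested. RNA came from 6 libraries labelled Huh7, an established line of hepatocellular carcinoma, and wild type. The normoxia group (libraries C1 to C3) spent 24 h at 21% oxygen and the hypoxia group (C4 to C6) 24 h at 1% oxygen, with 3 libraries each. The series title concerns an RNA induced by low oxygen and ferroptosis, an iron-dependent form of cell death. No label says how the cultures behind the replicates were separated, and a p-value here reflects only how far these libraries scatter.

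Heme synthesis starts and ends in the mitochondrion. ALAS1, the rate-limiting enzyme outside red cell precursors, makes aminolevulinic acid, and free heme lowers its expression. ALAD, UROS and UROD act in the cytosol, where ALAD forms porphobilinogen, UROS closes the porphyrin ring and UROD removes carboxyl groups from its side chains. CPOX and PPOX then oxidise the porphyrinogen, both using molecular oxygen, and FECH inserts iron. Heme oxygenases open the ring with oxygen and electrons from POR, releasing iron, carbon monoxide and biliverdin. HMOX1 is the inducible form and HMOX2 the constitutive one. The repressor BACH1 holds HMOX1 down until heme binds it. In liver, much of the heme made goes into cytochromes P450.

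Upstream stretches of the members are shown because the genes' mRNAs moved in opposite directions. RefSeq promoter windows on GRCh38.p14 (250 bases before to 50 after a start) were matched for 7 of the 9 members, in 10 windows. HMOX1 and UROS were not matched. Windows were searched on both strands for ACGTG and GCGTG, core letters of the sites bound by hypoxia-inducible factors (HIF), and for CACGTG (an E-box that contains ACGTG). TGACNNNGC, the core of antioxidant response elements bound by MAF dimers, and CGCATGCG, a site of the nuclear respiratory factor NRF1, were searched too. Capitals mark matches, and the printed stretches hold no annotated exon bases, except for the ALAS1 and HMOX2 sites, which are printed with their nearest bases only. The stretches of ALAS1 and ALAD, which rose, and of UROD and CPOX, which fell, run 5′ to 3′ on the gene's strand.
ALAS1, chr3:52197833-52198082, plus strand: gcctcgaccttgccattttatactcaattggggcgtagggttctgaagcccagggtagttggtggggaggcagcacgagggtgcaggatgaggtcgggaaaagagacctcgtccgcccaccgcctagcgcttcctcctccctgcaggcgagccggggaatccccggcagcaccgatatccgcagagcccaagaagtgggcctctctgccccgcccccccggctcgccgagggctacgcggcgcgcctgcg
ALAS1 NRF1 match, chr3:52198096-52198121, plus strand: cgcccaaggCGCATGCGcagcggtca
ALAD, chr9:113401334-113401534, minus strand: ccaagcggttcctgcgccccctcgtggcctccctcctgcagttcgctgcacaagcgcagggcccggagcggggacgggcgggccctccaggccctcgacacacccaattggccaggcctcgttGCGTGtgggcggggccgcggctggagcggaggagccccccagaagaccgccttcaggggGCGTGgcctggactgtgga
UROD, chr1:45012004-45012146, plus strand: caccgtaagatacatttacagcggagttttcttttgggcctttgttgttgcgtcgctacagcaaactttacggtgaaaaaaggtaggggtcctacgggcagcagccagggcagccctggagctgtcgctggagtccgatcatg
CPOX, chr3:98593724-98593861, minus strand: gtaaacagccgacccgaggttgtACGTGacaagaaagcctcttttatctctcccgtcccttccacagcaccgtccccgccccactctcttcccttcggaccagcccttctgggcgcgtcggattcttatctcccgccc
HMOX2 E-box match, chr16:4474698-4474723, plus strand: ccgccccaggCACGTGcacagtgagt

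The whole ALAS1 window held an NRF1 match and no match to the other letters, and the UROD window held none of the 5 motifs. GCGTG occurred 2 times in the ALAD stretch and 1 time in a second ALAD window, and ACGTG occurred 1 time in the CPOX stretch. The FECH window held GCGTG 4 times and the only antioxidant match among the 7 members with a window. HMOX1 and UROS had no window to search. Of the PPOX windows, 1 held ACGTG and GCGTG 1 time each and the other held GCGTG 1 time. The first HMOX2 window held ACGTG 3 times, of which 2 are the E-box read on both strands. Of all 35116 windows in the table, 21.4% held ACGTG, 36.5% GCGTG, 7.26% the E-box, 13.3% the antioxidant letters and 2.02% the NRF1 letters. Both directions of change occurred with and without HIF core letters. A match is a description of the letters and not evidence of binding.

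Libraries held 37621426 to 40794783 expected counts, and levels are given as CPM, counts scaled to the TMM-adjusted size of each library. The cell label and the exposure were checked on a few genes. Most hepatocyte markers did not bear out the label, which is taken as given. Of 8 hepatocyte markers, 5 were under 1 CPM in both groups, among them albumin (ALB), and AFP, APOA1 and TTR were at 0, where 3 counts (the upper limit for a count of 0, counting error only) correspond to 0.0765 CPM for normoxia and 0.0898 CPM for hypoxia. The summed level of all 8 was 8.85 to 10.7 CPM in normoxia and 20.7 to 21.6 CPM in hypoxia. That sum came almost wholly from the other 3, which rose in the edgeR test: transferrin (TF) from 8.24 ± 0.765 to 12.1 ± 1.32 CPM, the transcription factor HNF4A from 1.30 ± 0.181 to 7.01 ± 0.702 CPM, and SERPINA1 from 0.067 ± 0.0633 to 1.83 ± 0.131 CPM. Erythroid markers summed to 11.1 to 14.2 and 28.5 to 29.9 CPM, with 9 of 10 under 1 CPM and nearly all of the sum from the erythropoietin receptor EPOR. Macrophage markers summed to 6.17 to 6.52 and 42.2 to 51.1 CPM, with 4 of 5 under 1 CPM, PTPRC at 0 and the sum almost all CD68. The part of these markers in the heme gene values was not tested. The HIF target CA9, which encodes a carbonic anhydrase, went from 56.2 ± 1.51 to 454 ± 20.5 CPM, 8.08-fold higher.

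The members split by direction. In edgeR's quasi-likelihood test with Benjamini-Hochberg adjustment over all 17396 genes, 3 of 9 rose in hypoxia, 4 fell and 2 did not pass the threshold of 0.05. Of all genes tested, 72.8% passed, 36.5% higher and 36.3% lower, so a share of 7 in 9 is close to the background. Scaled by library totals, 2 members rose and 5 fell, beside 5207 risen and 7431 fallen genes among all tested. In 7 of the 9 members the normoxia and hypoxia values did not overlap, which held for 75.7% of all genes. The median log2 change was -0.21 over the members and 0.02 over all genes. Library totals, in place of the TMM factors used here, moved the median of all genes to -0.13. In bulk RNA, fewer cells of a kind and less RNA per cell cannot be told apart.

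**Figure D1:**
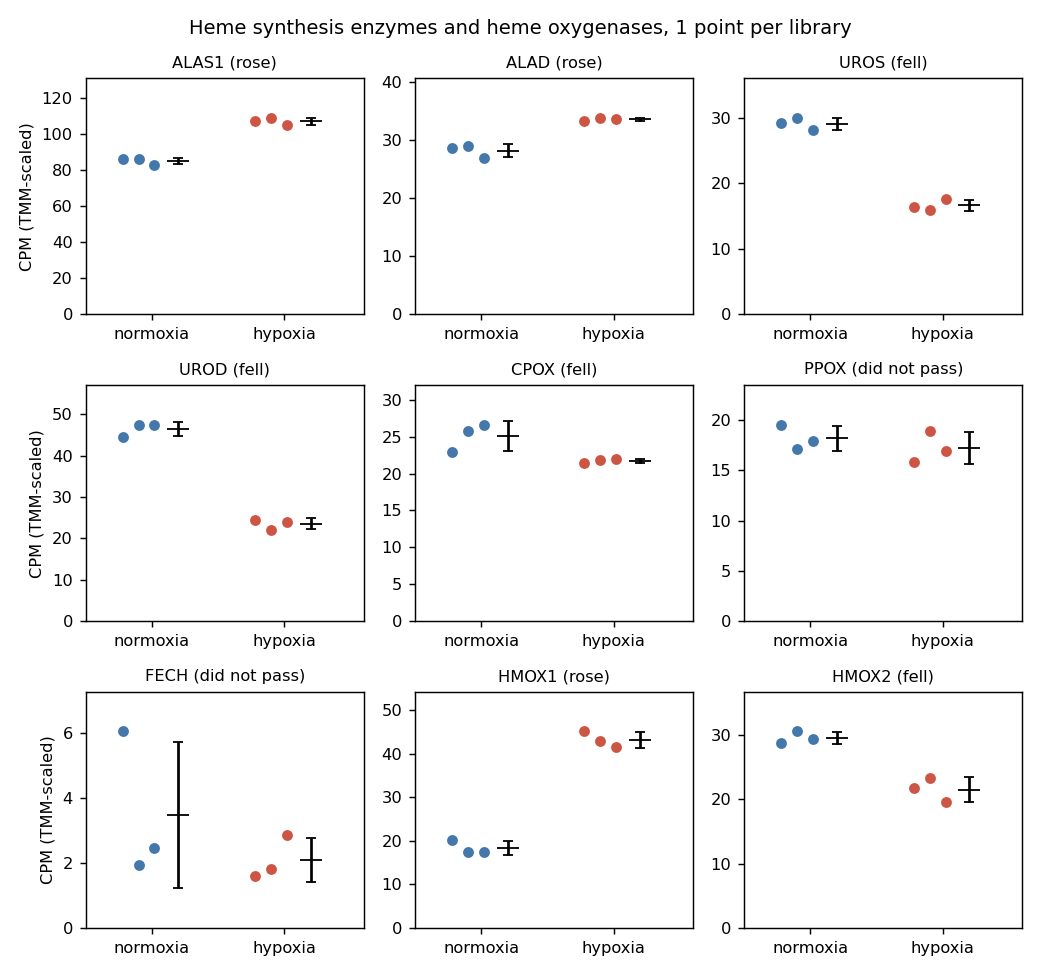
Level of each member in CPM (TMM-scaled, each vertical axis starting at 0) with 1 point per library, and beside each group its mean with the SD of 3 libraries. ALAS1, ALAD and HMOX1 lie higher in every hypoxia library, UROS, UROD, CPOX and HMOX2 lie lower, and PPOX and FECH overlap between the groups.

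The first enzyme of the pathway rose slightly. ALAS1 (ENSG00000023330.14, chromosome 3, 52198086 to 52214327 on GRCh38, plus strand) had 86.1, 86.0 and 82.9 CPM in normoxia and 107, 109 and 105 CPM in hypoxia. Every hypoxia library lay above every normoxia library, and the libraries of a group lay close together. The mean went from 85.0 ± 1.81 to 107 ± 1.95 CPM (SD, n = 3 each), 1.26-fold higher, a log2 change of 0.33 (SE 0.04, edgeR adjusted p = 2.83e-05). It passed in all 15 alternatives, but the size of the rise depended on the scaling. With library totals the log2 change of ALAS1 was 0.18 (edgeR adjusted p = 0.0025), where that of all genes had a median of -0.13. With limma on log2(FPKM + 0.5) it was 0.18 (adjusted p = 0.00461), against a median of -0.12. In hypoxia ALAS1 was the member with the highest level per kilobase, as given with the other levels after the single genes. ALAS2, the enzyme that takes its place in red cell precursors, had too few counts to be tested.

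ALAD (ENSG00000148218.15, chromosome 9, 113386317 to 113401333, minus strand), which makes porphobilinogen, had 28.7, 28.9 and 27.0 CPM in normoxia and 33.4, 33.9 and 33.6 CPM in hypoxia. The groups did not overlap, and the hypoxia libraries were nearly level. Its mean rose from 28.2 ± 1.09 to 33.6 ± 0.251 CPM, 1.19-fold, a log2 change of 0.25 (SE 0.05, edgeR adjusted p = 0.00155). With library totals the log2 change of ALAD was 0.10 (adjusted p = 0.117), where that of all genes had a median of -0.13. For its most abundant transcript alone it was 0.19 (adjusted p = 0.169).

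The cytosolic enzymes that close and trim the ring fell most among the synthesis enzymes called. UROS (ENSG00000188690.13, chromosome 10, 125784980 to 125823285, minus strand) had 29.2, 30.0 and 28.1 CPM in normoxia and 16.5, 16.0 and 17.6 CPM in hypoxia. No hypoxia library came near the normoxia range. The mean fell from 29.1 ± 0.96 to 16.7 ± 0.826 CPM, 1.75-fold lower, a log2 change of -0.80 (SE 0.06, edgeR adjusted p = 9.42e-07).

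UROD (ENSG00000126088.13, chromosome 1, 45012147 to 45015575, plus strand) had 44.6, 47.4 and 47.5 CPM in normoxia and 24.6, 22.0 and 24.0 CPM in hypoxia. Again the groups were far apart relative to their spread. The mean went from 46.5 ± 1.65 to 23.5 ± 1.31 CPM, 1.98-fold lower, a log2 change of -0.98 (SE 0.06, edgeR adjusted p = 9.42e-08). Both UROS and UROD passed in all 15 alternatives, with log2 changes of -0.84 to -0.77 and -1.03 to -0.94 when each library was left out in turn.

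Of the mitochondrial enzymes that follow, CPOX fell slightly, and PPOX and FECH did not pass. CPOX (ENSG00000080819.7, chromosome 3, 98579446 to 98593723, minus strand), which makes protoporphyrinogen, had 22.9, 25.8 and 26.6 CPM in normoxia and 21.5, 21.8 and 22.0 CPM in hypoxia. Library C1 lay between the other normoxia libraries and the hypoxia libraries, and the groups did not overlap. The mean went from 25.1 ± 1.98 to 21.7 ± 0.262 CPM, 1.15-fold lower, a log2 change of -0.21 (SE 0.07, edgeR adjusted p = 0.0217). The call of CPOX did not hold without normoxia C2 (adjusted p = 0.067), normoxia C3 (0.0789) or hypoxia C4 (0.0604), or for its most abundant transcript alone (0.0559).

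PPOX (ENSG00000143224.17, chromosome 1, 161166410 to 161178013, plus strand), the next oxidase, had 19.5, 17.1 and 17.9 CPM in normoxia and 15.8, 18.9 and 16.9 CPM in hypoxia. The groups overlapped. The means were 18.2 ± 1.26 and 17.2 ± 1.57 CPM, and the log2 change of -0.08 (SE 0.09) did not pass (edgeR adjusted p = 0.416). It passed with library totals alone among the alternatives (log2 change -0.23, adjusted p = 0.0277), against the median of -0.13 under that scaling. Of 4607 exon bases of PPOX, 1118 are shared with B4GALT3 on the opposite strand, a galactosyltransferase gene that fell from 46.5 to 30.1 CPM. Whether the counting used the strand is not given in the sources used here, so reads there may have been divided between them. Of the PPOX transcripts with counts, only PPOX-212, PPOX-213 and PPOX-214 reach into B4GALT3. PPOX-212 held 3.8% of the PPOX counts in normoxia and 4.2% in hypoxia (means). The means of PPOX-213 and PPOX-214 were no more than 0.168% in either group.

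FECH (ENSG00000066926.10, chromosome 18, 57548283 to 57586772, minus strand), the enzyme that inserts iron, was the member with the lowest level and the widest spread relative to its mean. Its values were 6.04, 1.92 and 2.45 CPM in normoxia and 1.60, 1.82 and 2.85 CPM in hypoxia. Library C1 stood apart, and the other 5 libraries overlapped. The means were 3.47 ± 2.24 and 2.09 ± 0.666 CPM, with a log2 change of -0.74 (SE 0.40, edgeR adjusted p = 0.119). Without normoxia C1 the log2 change of FECH was -0.08 (adjusted p = 0.803), and without normoxia C2 it was -1.04 (adjusted p = 0.0291). It also passed with no filter on low counts (-0.76, adjusted p = 0.00906) and with limma on log2(FPKM + 0.5) (-0.91, adjusted p = 0.0104). The FPKM of FECH also depends on how its counts were divided among transcripts of unlike length. Rows that GENCODE release 29 does not assign to a gene stayed out of the sum, so the level of FECH may be incomplete.

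The heme oxygenases moved in opposite directions. HMOX1 (ENSG00000100292.16, chromosome 22, 35380361 to 35394214, plus strand) had 20.2, 17.4 and 17.4 CPM in normoxia and 45.2, 42.9 and 41.6 CPM in hypoxia. The lowest hypoxia library of HMOX1 was above the highest normoxia library by more than the spread within either group. The means were 18.3 ± 1.62 and 43.2 ± 1.82 CPM, a log2 change of 1.24 (SE 0.07, edgeR adjusted p = 6.47e-08), which stayed between 1.19 and 1.31 when each library was left out.

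HMOX2 (ENSG00000103415.11, chromosome 16, 4474690 to 4510347, plus strand) had 28.8, 30.5 and 29.3 CPM in normoxia and 21.7, 23.3 and 19.5 CPM in hypoxia. The groups did not overlap. The mean went from 29.5 ± 0.901 to 21.5 ± 1.90 CPM, 1.37-fold lower, a log2 change of -0.46 (SE 0.07, edgeR adjusted p = 0.000198). For its most abundant transcript alone the change of HMOX2 was -0.34 and did not pass (adjusted p = 0.0709). Of 3793 exon bases of HMOX2, 228 are shared with NMRAL1 on the opposite strand, whose log2 change was 0.20 (SE 0.05).

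Levels between genes were compared by FPKM, recomputed from the expected counts per kilobase of transcript. In normoxia UROD was highest at 41.0 ± 1.65 FPKM (SD, n = 3), followed by ALAS1 at 37.9 ± 1.05, HMOX2 at 24.7 ± 0.271 and UROS at 16.7 ± 0.483 FPKM. PPOX at 12.8 ± 0.882, HMOX1 at 11.8 ± 1.03 and ALAD at 11.2 ± 0.637 FPKM came next, each overlapping its neighbour in range. CPOX at 9.91 ± 0.832 and FECH at 2.37 ± 0.826 FPKM were lowest. In hypoxia ALAS1 came first at 42.9 ± 0.718 FPKM and HMOX1 second at 25.3 ± 1.23 FPKM. UROD (18.4 ± 1.45) and HMOX2 (16.2 ± 1.90 FPKM) overlapped, and ALAD (13.1 ± 0.169 FPKM) lay above PPOX (11.6 ± 0.802 FPKM). UROS (8.31 ± 0.60) and CPOX (7.87 ± 0.306 FPKM) overlapped, and FECH was last again at 1.03 ± 0.472 FPKM. HMOX1 thus went from rank 6 to rank 2 and UROD from rank 1 to rank 3 among the 9.

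Ratios within a library do not depend on the scaling between libraries. The ratio of HMOX1 to HMOX2 counts was 0.701, 0.569 and 0.592 in normoxia and 2.08, 1.84 and 2.13 in hypoxia. Every hypoxia ratio was above every normoxia ratio. Per kilobase, by FPKM, the ratio was 0.480 ± 0.0418 in normoxia and 1.57 ± 0.173 in hypoxia, so HMOX2 had the higher level in each normoxia library and HMOX1 in each hypoxia library. The mean ratio of counts went from 0.621 ± 0.0708 to 2.02 ± 0.154, 3.26-fold higher on the log scale (two-sided exact permutation test, p = 0.1, the smallest that 3 against 3 can give, 0.2 after adjustment over 4 ratios).

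HMOX1 to ALAS1, the inducible breakdown enzyme against the first synthesis enzyme, went from 0.234, 0.202 and 0.209 to 0.423, 0.395 and 0.397, 1.88-fold higher (exact permutation p = 0.1, adjusted 0.2). Here too the groups did not overlap. ALAS1 to FECH had means of 30.8 ± 15.3 and 54.7 ± 15.9 (exact permutation p = 0.2), and ALAD to FECH 10.2 ± 5.14 and 17.2 ± 4.78 (exact permutation p = 0.2). In both ratios to FECH the groups overlapped, with the lowest value in normoxia C1, the library where FECH was high. With recomputed FPKM in place of counts the groups did not overlap, at 17.5 ± 6.90 and 47.2 ± 19.4 for ALAS1 to FECH and 5.10 ± 1.74 and 14.4 ± 5.88 for ALAD to FECH (exact permutation p = 0.1 each). The FPKM of FECH depends on which transcript length took the counts. FECH-201, of 7689 bases, took 40.3% of them in normoxia C1 and 0% in C2 and C3. In hypoxia it took 0% in C4, 69.7% in C5 and 31.2% in C6. Library C4, with 0%, had an ALAS1 to FECH ratio by FPKM of 49.3, above the highest normoxia ratio of 25.3 in C2. The part of this transcript in the separation of the groups by FPKM was not tested.

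**Figure D2:**
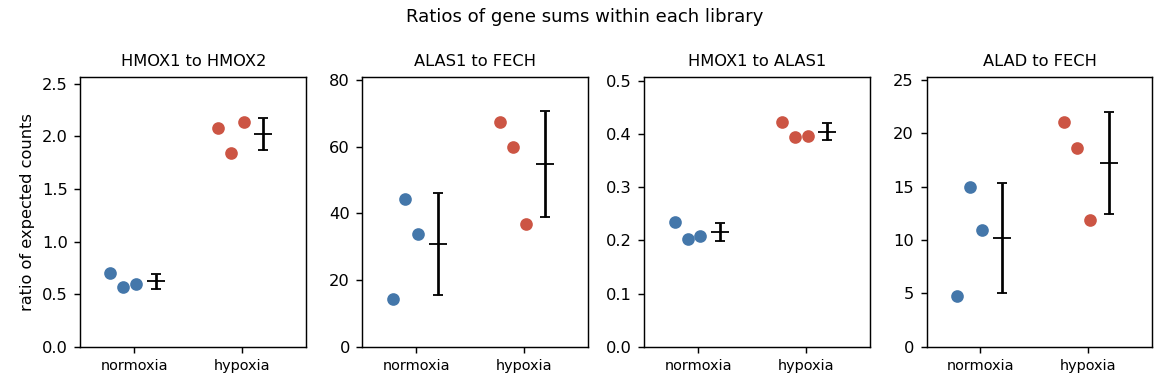
Ratios of summed expected counts of 2 members within each library, 1 point per library, with the mean and SD of 3 libraries beside each group and each axis starting at 0. HMOX1 to HMOX2 lies between 0.569 and 0.701 in normoxia and between 1.84 and 2.13 in hypoxia, while both ratios to FECH overlap between the groups.

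The table lists 112 transcripts of the members, and 51 had enough counts to be tested, of which 4 rose and 4 fell in the edgeR test (31.7% of 63530 transcripts passed). All of the ALAS1 counts were assigned to protein-coding transcripts, of which 2 passed the test. ALAS1-204 had 34.8, 36.6 and 33.4 CPM in normoxia and 48.8, 47.0 and 43.9 CPM in hypoxia, a log2 change of 0.42 (SE 0.07, edgeR adjusted p = 0.00477). ALAS1-201 rose by 0.68 (SE 0.13, adjusted p = 0.00933). ALAS1-205, with a share of 34.7% ± 4.39 of the gene's counts in normoxia, had a log2 change of 0.03 (SE 0.10) and did not pass. The difference between these transcripts was not tested.

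HMOX1-201, the more abundant of 2 protein-coding transcripts, held 96.6% ± 1.05 of the HMOX1 counts in normoxia and 97.6% ± 0.723 in hypoxia. Its log2 change was 1.23 (SE 0.08). The other, HMOX1-202, had few counts and a log2 change of 0.19 (SE 0.53), and did not pass. HMOX1-204, which retains an intron and had few counts, rose from no more than 0.101 CPM to at least 0.309 CPM (log2 change 2.28, SE 0.53, adjusted p = 0.0194). In UROD all 9 tested transcripts had negative changes, led by UROD-201 with 29.7, 33.4 and 36.1 CPM in normoxia and 16.3, 13.6 and 15.9 CPM in hypoxia (log2 change -1.11, SE 0.11, edgeR adjusted p = 0.000707). In UROS 7 of 9 were negative, and UROS-206 (-0.60, SE 0.10) and the intron-retaining UROS-220 (-0.98, SE 0.22) passed. ALAD had positive changes in 5 of 5 tested transcripts, of which none passed. No transcript passed for HMOX2 either (5 tested, 2 positive and 3 negative changes), or for CPOX (2 tested, 1 positive and 1 negative). The same held for PPOX (9 tested) and FECH (4 tested).

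For PPOX, transcripts with a retained intron held 24.3%, 32.7% and 26.8% of the counts in normoxia and 36.0%, 32.5% and 35.1% in hypoxia. These shares overlapped between the groups. The share of protein-coding PPOX transcripts did not, at 69.53%, 61.95% and 69.48% in normoxia and 59.77%, 59.4% and 60.13% in hypoxia. The difference in shares was not tested. The coding PPOX-202 had a log2 change of -0.47 (SE 0.17) and did not pass (edgeR adjusted p = 0.0801). For FECH the assignment was unstable between replicates: FECH-201, the longest of its tested transcripts, had 96.7 counts in C1, 0 in C2, C3 and C4, 44.0 in C5 and 29.6 in C6. FECH-203, annotated for nonsense-mediated decay, took 84.6% of the FECH counts in C4 and 0.888% in C5. FECHP1, a processed pseudogene of FECH, had 0 counts.

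**Figure D3:**
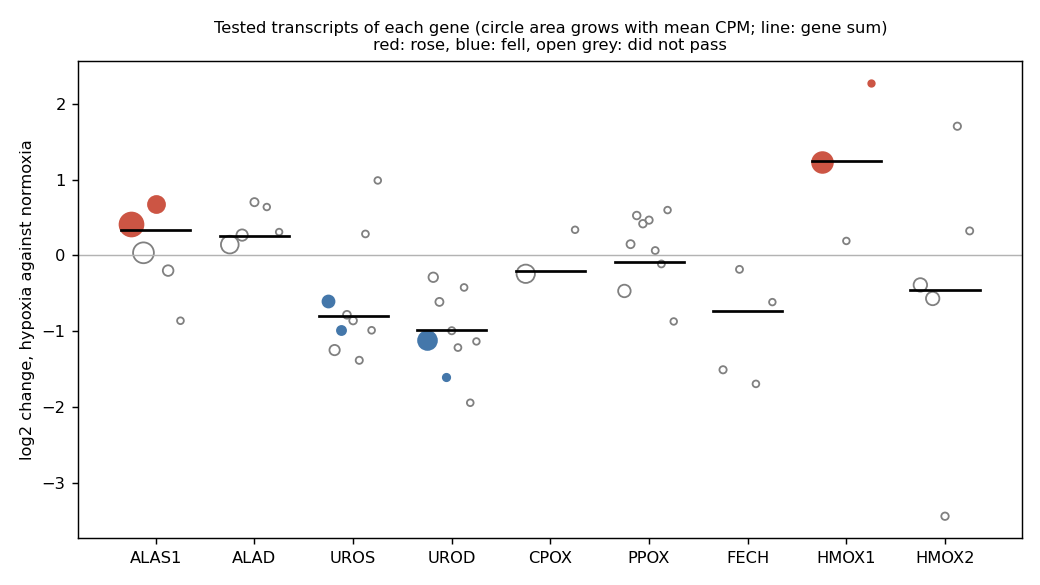
Log2 change in hypoxia against normoxia for each of the 51 tested transcripts, by gene; circle area grows with mean CPM, filled circles passed the test, and black lines give the change of the gene sum. All 9 UROD circles lie below 0 and all 5 ALAD circles above it, while ALAS1 and HMOX2 have circles on both sides.

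Related genes were counted by role. Of 46 listed, 43 were tested: 13 rose, 21 fell and 9 missed the threshold, with a median of -0.16 on the log2 scale. Beside the 72.8% of all genes that passed (36.5% higher, 36.3% lower), 34 of 43 is close to the background, and with library totals 13 rose and 26 fell. The groups that follow hold 3 to 14 tested genes each and are read against the same shares. Among the partners of heme breakdown, 1 rose and 2 fell. POR, the reductase that feeds electrons to heme oxygenases and cytochromes P450, went from 145 ± 3.01 to 71.5 ± 3.56 CPM, 2.03-fold lower (log2 change -1.02, SE 0.05). The biliverdin reductases, which turn biliverdin into bilirubin, moved apart. BLVRA went from 23.2 ± 0.907 to 11.8 ± 0.462 CPM, 1.97-fold lower, and BLVRB from 28.7 ± 0.43 to 42.6 ± 3.23 CPM, 1.49-fold higher (edgeR adjusted p = 3.67e-07 and 1.13e-05). HMOX1 and its electron donor POR thus moved in opposite directions.

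Among 14 genes that sense heme or regulate the pathway, 6 rose and 5 fell, and the other 3 did not pass (median 0.01 on the log2 scale). BACH1, the heme-binding repressor of HMOX1, rose from 84.0 ± 3.62 to 271 ± 9.67 CPM, 3.22-fold (log2 change 1.69, SE 0.05, edgeR adjusted p = 2.95e-10). It is outside the naming rule for the lists and is given because its protein is the best known repressor of HMOX1, which rose with it. MAFK and MAFF, small MAF proteins that dimerise with BACH1 or with the activator NRF2, rose 4.57-fold and 3.72-fold, to 422 ± 18.0 and 112 ± 5.16 CPM. MAFG, the other small MAF gene listed, did not pass (61.8 ± 1.92 and 59.7 ± 4.01 CPM, edgeR adjusted p = 0.449). NFE2L2, the gene of NRF2, went from 64.5 ± 6.84 to 54.2 ± 3.57 CPM, 1.19-fold lower (edgeR adjusted p = 0.0135). NR1D1, a nuclear receptor that uses heme as its ligand, rose from 14.2 ± 0.899 to 52.7 ± 3.67 CPM, whereas its relative NR1D2 went from 34.1 ± 2.68 to 22.1 ± 2.33 CPM, 1.54-fold lower. PPARGC1A, a coactivator known to raise ALAS1 in liver, fell 1.43-fold, and the heme-regulated kinase EIF2AK1 fell 1.27-fold.

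Of 12 heme and porphyrin transport genes, 3 rose, 5 fell and 4 did not pass (median -0.16). ABCB6, a porphyrin transporter, had the largest change of these, from 38.8 ± 1.14 to 194 ± 4.27 CPM (log2 change 2.32, SE 0.04, edgeR adjusted p = 2.17e-11). PGRMC2, a heme chaperone, rose 1.80-fold, and SLC48A1, which carries heme out of lysosomes, rose 1.73-fold. ABCG2, an efflux pump that accepts porphyrins, went from 71.1 ± 1.63 to 23.8 ± 0.263 CPM, 2.99-fold lower. SLC46A1, a folate transporter that also carries heme, went from 89.9 ± 1.29 to 34.1 ± 3.20 CPM, 2.64-fold lower. ABCB10, an inner-membrane transporter needed for heme synthesis, was 1.65-fold lower.

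All 5 genes of mitochondrial iron supply changed, 2 up and 3 down (median -0.24; 72.8% of all genes changed), and 4 of them without normoxia C2 or C3 or hypoxia C4 or C5, with DESeq2, with the filter of 1 CPM or with limma on FPKM. The mitoferrins, which carry iron into mitochondria, went in opposite directions: SLC25A37 rose from 89.8 ± 2.15 to 141 ± 1.29 CPM, and SLC25A28 fell from 24.4 ± 1.35 to 6.79 ± 1.01 CPM, 3.59-fold. FDXR, the ferredoxin reductase, rose 1.60-fold, while FDX2, a ferredoxin of iron-sulfur cluster assembly, was 1.62-fold lower. Of 6 genes of the respiratory cytochromes, 5 fell and 1 did not pass (median -0.37), where 36.3% of all genes fell and the median of all genes was 0.02. UQCRFS1 was 1.54-fold lower, CYC1 1.43-fold and HCCS 1.30-fold lower. HCCS attaches heme to cytochromes and CYC1 carries heme, whereas UQCRFS1 is an iron-sulfur subunit of the same respiratory complex and carries none.

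Among 5 heme-binding and scavenging genes 3 were tested, and 1 rose, 1 fell and 1 did not pass. LRP1, a receptor for many ligands that include the hemopexin-heme complex, rose from 150 ± 3.13 to 775 ± 34.5 CPM, 5.18-fold (log2 change 2.37, SE 0.04). HEBP1, a small heme-binding protein, went from 27.4 ± 0.902 to 15.5 ± 0.104 CPM, 1.77-fold lower. Hemopexin itself (HPX) and the scavenger receptor CD163 had too few counts to be tested.

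**Figure D4:**
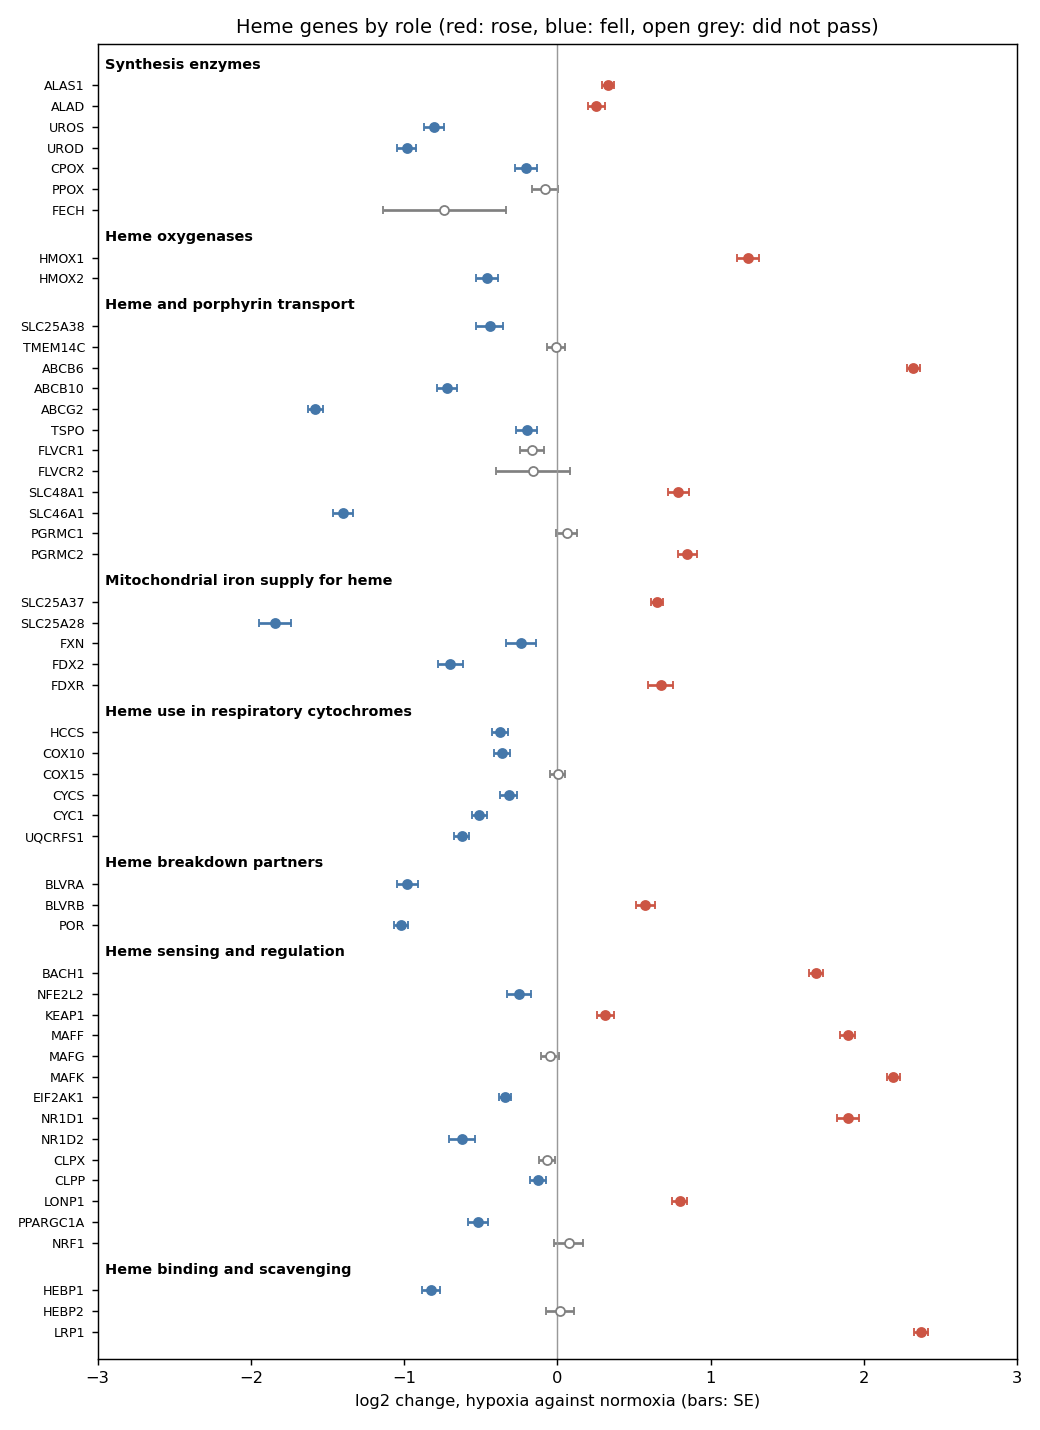
Log2 change in hypoxia against normoxia with its SE for the 9 members and the 43 tested genes of the related lists, grouped by role; red filled points rose, blue filled points fell and open grey points did not pass. Synthesis enzymes run from ALAS1 at 0.33 to UROD at -0.98, and BACH1, MAFF and MAFK lie at 1.69 or above beside HMOX1 at 1.24. MAFG lies at -0.05 and NFE2L2 at -0.25.

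The genes most like 3 of the members over the 6 libraries were ranked by the Euclidean distance of centred log2 CPM among 13140 protein-coding genes. For HMOX1 these were NUDT22 (distance 0.066), RASSF2 (0.086) and KRBOX4 (0.087), and for ALAS1 they were PPIA (0.021), AARS1 (0.041) and CALD1 (0.042). NUDT22 went from 12.8 to 31.0 CPM. The closest to FECH were far more distant, PRH2 at 0.498, CKLF-CMTM1 at 0.610 and NDUFC2-KCTD14 at 0.710. The 6 libraries share the difference between the groups, which enters each of these distances.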

How the data were processed

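The members and gene lists were chosen with earlier results of these data known. Strand-specific, paired-end libraries were made after rRNA depletion, per the labels' protocols. The submitters' processing notes name RSEM, HISAT2, cutadapt and GRCh38 (hg38), while versions, annotation and strand setting were not given in the sources used here. In the table of 251062 transcript rows, the authors deposited a length per row and an expected count per library (reads divided among transcripts, not whole numbers). Another 6 columns, of FPKM, were not used, since 1 measure per library was kept. Library columns carry a group and a number (C1 to C6) that matches no replicate label.

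Expected counts were summed per gene with GENCODE release 29 (202907 rows, 58478 genes). The other 48155 rows, with 6.12% to 6.39% of the counts, stayed out. Totals were 37621426 to 40794783 expected counts per library. Sums were rounded and tested with edgeR 4.0.16 (R 4.3.3; filterByExpr, TMM, quasi-likelihood, two-sided, adjusted p under 0.05); transcripts were tested likewise. FPKM was recomputed from the expected counts and deposited lengths, which are not effective lengths, for levels between genes and for limma 3.58.1. Replicate pairs differed beyond sampling noise (chi-square per degree of freedom 4.36 to 10.1). Ratios were compared by exact permutation.

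The naming rule took all members. Per list it took up to 3 risen and 3 fallen genes with the largest changes and 1 CPM or more. BACH1, MAFG and NFE2L2 were added. Some listed genes are not reported here. Apart from MAFG, genes of each list that did not pass are counted only. Overlapping exons were checked for the members. Alternatives were DESeq2 1.42.0, other scalings and filters, limma on recomputed FPKM with pseudocounts of 0.5, 0.1 and 1 (chosen after seeing the data), the most abundant transcript alone, and leaving out each library.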

Additional observations from a re-analysis of the deposited data

How the results depend on the processing

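Over 135 log2 changes of members under alternatives, 122 kept their direction and side of the threshold, 7 lost the call, 6 gained it and 0 reversed. With the most abundant transcript alone, 4 members changed in place of 7. With library totals, 13 transcripts of the members changed in place of 8. The planned limma fits and ratios on deposited FPKM were not run, and recomputed FPKM, an alternative chosen after seeing the data, took their place. Leaving out 1 library at a time gave 6 to 7 changed members, 31 to 34 changed list genes, 6 to 10 changed transcripts and 11882 to 12439 changed genes. The log2 changes of ratios were then 1.65 to 1.80 for HMOX1 to HMOX2, 0.87 to 0.98 for HMOX1 to ALAS1, 0.45 to 1.27 for ALAS1 to FECH and 0.38 to 1.21 for ALAD to FECH. Fewer libraries enter these fits; the cause of the other differences was not tested. FECH had 240 expected counts in normoxia C1 and 56.5 to 96.4 in the other libraries. No paired analysis was possible because the columns carry no replicate numbers of the labels.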
